A study of Mus musculus with 6 samples.

Results

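The 44 genes described here encode the machinery that attaches and removes the ubiquitin-like proteins SUMO and NEDD8, the cullins that NEDD8 modifies, and a few ubiquitin enzymes linked to Rnf111. They were taken by symbol from a list chosen by function, and each symbol matched 1 of the 25416 rows of the expression table. The study compared polyadenylated RNA of mouse intestine between a genotype labelled HET, in which Rnf111 bears the S254D substitution (3 libraries), and a genotype labelled WT (3 libraries). The labels give no strain, age, sex, treatment, segment of the intestine or number of animals. Transcript levels are in FPKM, that is fragments relative to the length of the transcript and to the depth of the library.

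SUMO and NEDD8 are small proteins that are joined to lysines of target proteins by a relay of an activating enzyme, a conjugating enzyme and a ligase, and are cut off again by dedicated proteases. SUMO2 and SUMO3 form chains, which SUMO-targeted ubiquitin ligases such as Rnf4 and Rnf111 recognise. The best known targets of NEDD8 are the cullins, scaffolds of multi-subunit ubiquitin ligases, which NEDD8 switches on and the COP9 signalosome switches off. In human cells RNF111 has been described to ubiquitylate SUMO-modified XPC, a DNA damage sensor, together with the conjugating enzyme UBE2N and a partner protein. RNF111 has also been described to act with UBE2M as a NEDD8 ligase.

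Totals over all rows ranged from 469968 to 510568 FPKM for HET and from 493950 to 520095 for WT. A rough estimate of depth from the smallest values gave between 19000000 and 21900000 fragments per HET library, and between 20400000 and 25100000 per WT library. Markers of several cell types differed between the genotypes, and in bulk tissue fewer cells of a type and less RNA per cell cannot be told apart. All 7 Paneth cell markers fell, with a summed level of 157 to 1110 FPKM in HET against 5200 to 15600 in WT. All 8 fibroblast markers fell (23.2 to 35.6 against 136 to 155), as did all 6 of smooth muscle (160 to 186 against 282 to 306) and all 6 of macrophages (51.3 to 82 against 124 to 128). Of the T cell markers 6 of 7 fell (27.9 to 34.3 against 55.3 to 61.6). The 3 B and plasma cell markers that could be tested fell (447 to 842 against 1600 to 1660 over 5 markers). All 5 tested mast cell markers rose (32.3 to 65.2 against 1.58 to 3.12 over 6 markers). Of 10 enterocyte markers 3 rose and 7 did not pass (27500 to 30400 against 19500 to 21900), and of 12 crypt stem and cycling cell markers 2 rose and 2 fell (334 to 352 against 364 to 399). Of all tested genes 10.7% rose and 35.7% fell. With libraries scaled by the median ratio over tested genes, 23.1% rose and 24.8% fell. Then 5 enterocyte markers rose, 5 crypt markers rose and 1 fell, and 2 B and plasma cell markers fell. Counts for the other cell types stayed the same. No marker looked up was at 0 in any library. The part of these differences in the levels of the SUMO and NEDD8 genes was not tested.

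In HET, 6 of the 44 genes rose and 3 fell, with the threshold set at 0.05 for the limma p-value adjusted by Benjamini-Hochberg over all tested genes, and 35 did not pass. The genes that rose were Sumo3, Sae1, Ube2m, Ube2f, Dcun1d3 and Cand1, by 1.12-fold to 1.34-fold in mean FPKM, and those that fell were Pias3, Senp2 and Cul1, by 1.26-fold to 1.57-fold. As shares, 13.6% of the 44 were called higher, where 10.7% of all 11870 tested genes were, and 6.82% were called lower, where 35.7% of all tested genes were. The median log2 fold change of the 44 was -0.04, against -0.12 for all tested genes, on the log2(FPKM + 1) scale used throughout, on which changes of low genes come out too small. For 34 of the 44 the log2 fold change was smaller than 0.2 in either direction. In 9 of the 44 all HET libraries lay above all WT libraries and in 11 they lay below, where 16.0% and 43.8% of all tested genes did so. Among genes with a mean FPKM of at least 5, of which 34 were members, 4 members were called higher (background 12.9%) and 2 lower (background 25.2%). A gene was tested if 3 or more libraries reached 1 FPKM, which all 44 did, although Senp8 reached 1 in only 1 HET library. With 1 library left out, 5, 3 and 8 of the 44 rose without HET replicates 1, 2 and 3, and 2, 3 and 2 without WT replicates 1, 2 and 3. Of all 11870 tested genes, 1267, 834 and 1610 rose without those HET replicates, and 754, 844 and 802 without those WT replicates. With all libraries 1269 rose.

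These counts depended on how libraries were scaled, and the typical gene was lower in HET as deposited. When each library was divided by the median ratio over tested genes, which brought the middle of the tested genes close to no change, 13 of the 44 were called higher (background 23.1%) and 2 lower, Pias3 and Cul1 (background 24.8%). With the median ratio over every row above 0 in all libraries, 19 were called higher (background 31.3%) and 1 lower, Pias3 (background 20.2%). The share of lower calls among all called genes was 76.9% as deposited, 51.7% with the first of these scalings and 39.2% with the second. Over 5 scalings, 7 of the 44 were called each time, namely Sumo3, Sae1, Ube2m, Ube2f, Dcun1d3, Cand1 and Pias3, and 22 kept one direction. Every upward call of another member depended on the scaling, on the settings of the fit or on leaving a library out. Nedd8, for example, passed without rescaling when a robust eBayes was used (limma adjusted p = 0.0496).

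**Figure D1:**
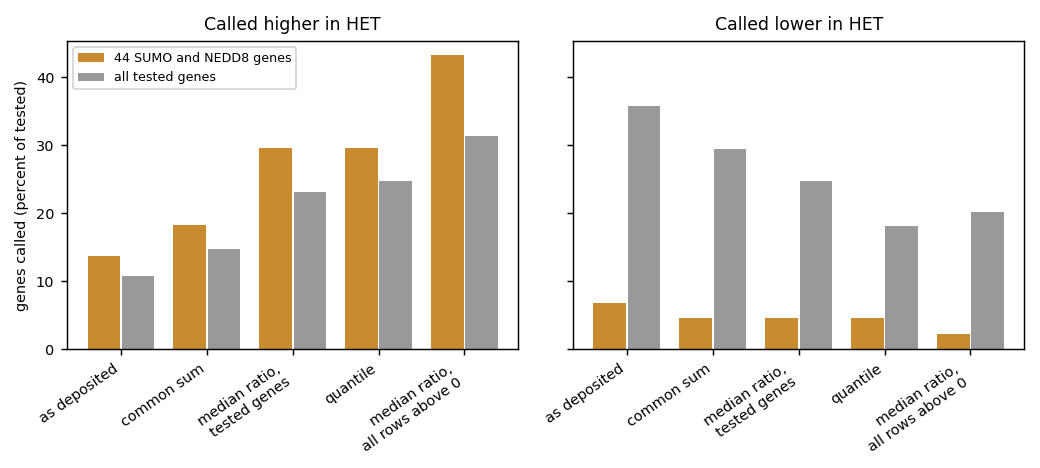
Percent of genes called higher (left) or lower (right) in HET by limma, for the 44 SUMO and NEDD8 genes and for all tested genes, under 5 ways of scaling the libraries. As deposited, 6.82% of the 44 were called lower against 35.7% of all tested genes, and with the median ratio over all rows above 0 they were 2.27% against 20.2%.

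Promoter sequences are shown for 5 genes called under every scaling, Sumo3, Ube2m, Ube2f, Pias3 and Cand1, and for Sumo2, the close paralog of Sumo3, whose HET values lay on the other side of WT. Each is the 250 bases before the transcription start, 5′ to 3′ on the gene's strand, from RefSeq on GRCm38.p6, taking the entry nearest the gene start of GENCODE M21 where there were several. This build differs from that of the expression values (GRCm39), and no measurement is joined to these coordinates. Capitals mark matches on either strand, overlaps included. The motifs searched were the GC box GGGCGG, the CCAAT box, the ETS site spelled CCGGAAG, the half-site TGACGT of cAMP response elements, the TATA box searched as TATAAA, and the NRF1 motif. The windows are chr10:77605847-77606096 on the plus strand for Sumo3, chr11:115536231-115536480 on the minus strand for Sumo2, chr7:13038276-13038525 on the minus strand for Ube2m, chr1:91250054-91250303 on the plus strand for Ube2f, chr3:96696125-96696374 on the plus strand for Pias3 and chr10:119240056-119240305 on the minus strand for Cand1.
Sumo3: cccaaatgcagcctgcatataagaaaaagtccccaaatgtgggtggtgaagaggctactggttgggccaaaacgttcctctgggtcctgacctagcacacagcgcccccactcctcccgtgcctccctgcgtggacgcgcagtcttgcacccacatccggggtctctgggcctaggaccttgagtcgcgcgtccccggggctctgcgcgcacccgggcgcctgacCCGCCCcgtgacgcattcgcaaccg
Sumo2: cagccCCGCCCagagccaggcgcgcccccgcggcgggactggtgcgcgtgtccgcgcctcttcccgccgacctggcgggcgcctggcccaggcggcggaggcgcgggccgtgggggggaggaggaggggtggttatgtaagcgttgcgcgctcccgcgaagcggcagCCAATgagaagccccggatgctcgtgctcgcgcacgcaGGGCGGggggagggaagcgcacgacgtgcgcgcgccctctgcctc
Ube2m: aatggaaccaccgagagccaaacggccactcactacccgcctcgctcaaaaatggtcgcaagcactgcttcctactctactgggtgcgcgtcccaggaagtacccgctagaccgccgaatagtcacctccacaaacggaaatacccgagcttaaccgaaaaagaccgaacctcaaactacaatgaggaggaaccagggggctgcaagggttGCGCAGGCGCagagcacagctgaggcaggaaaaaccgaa
Ube2f: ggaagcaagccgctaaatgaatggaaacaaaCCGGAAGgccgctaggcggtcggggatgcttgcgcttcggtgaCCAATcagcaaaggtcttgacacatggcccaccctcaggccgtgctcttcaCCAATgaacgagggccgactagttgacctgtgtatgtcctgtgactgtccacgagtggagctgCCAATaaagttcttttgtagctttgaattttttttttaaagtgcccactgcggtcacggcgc
Pias3: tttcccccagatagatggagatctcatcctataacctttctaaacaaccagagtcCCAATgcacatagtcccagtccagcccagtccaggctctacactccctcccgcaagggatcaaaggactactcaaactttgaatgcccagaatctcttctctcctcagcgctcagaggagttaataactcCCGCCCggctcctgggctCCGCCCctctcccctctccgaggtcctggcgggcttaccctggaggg
Cand1: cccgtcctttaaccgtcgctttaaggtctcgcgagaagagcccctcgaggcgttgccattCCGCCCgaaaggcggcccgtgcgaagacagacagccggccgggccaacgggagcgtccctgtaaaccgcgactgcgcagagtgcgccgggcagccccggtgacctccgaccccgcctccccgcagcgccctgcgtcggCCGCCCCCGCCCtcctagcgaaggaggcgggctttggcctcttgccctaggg
The Sumo2 window holds 2 GC boxes and 1 CCAAT match and is 77.2% G and C, the Sumo3 window holds 1 GC box and is 64.8% G and C. The window of Ube2m holds 1 NRF1 match and no GC box, that of Ube2f 3 CCAAT matches and 1 ETS match. Cand1 has 3 GC boxes, and Pias3 has 2 and 1 CCAAT match. RefSeq promoters were found for 37 of the 44 genes, each counted with 1 entry. The background counts every entry, and some genes have several, so the shares are not strictly like for like. Of the 37 genes, 22 hold GGGCGG (59.5%, against 32.7% of all 32851 promoters), 10 hold CCAAT (27.0% against 33.8%) and 7 hold CCGGAAG (18.9% against 6.91%). TGACGT was found in 8 (21.6% against 6.47%), the NRF1 motif in 4 (10.8% against 3.74%) and TATAAA in 2 (5.41% against 12.4%). A match is a run of letters and not a measured binding site.

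**Figure D2:**
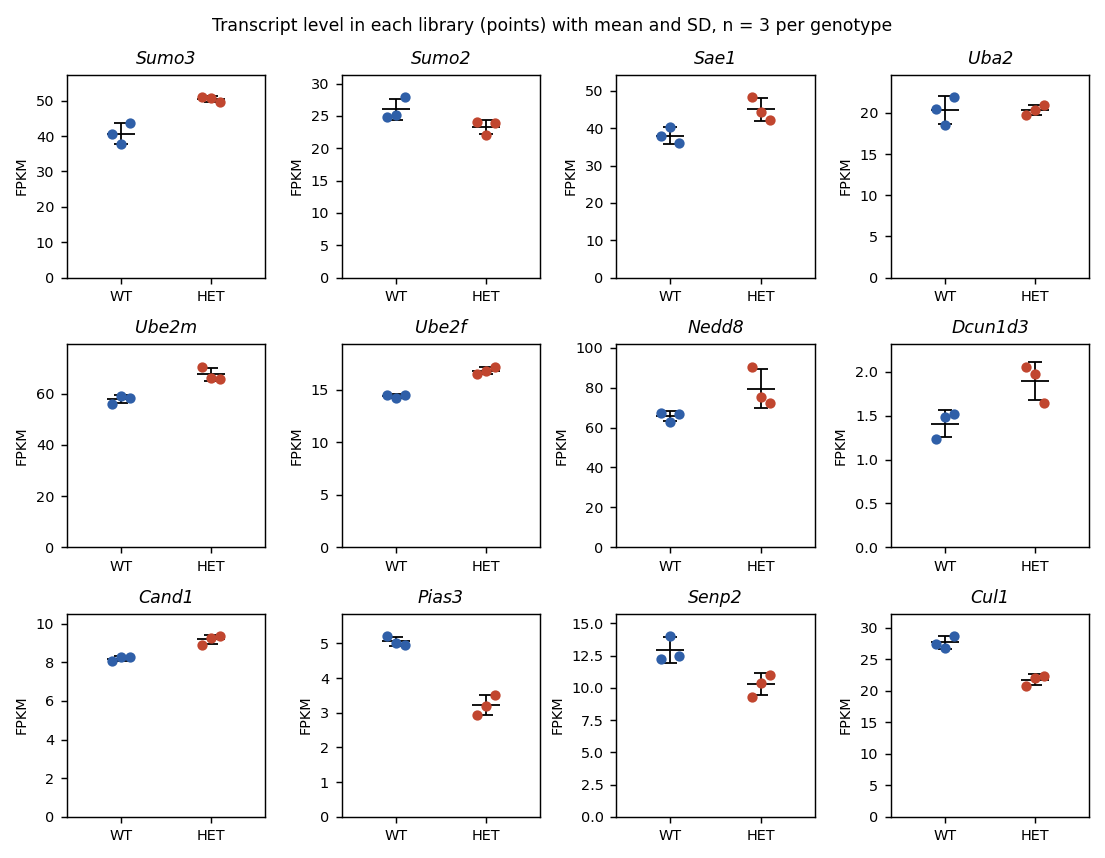
FPKM in each library (points) with the mean and SD of 3 libraries per genotype, for 12 SUMO and NEDD8 genes; each axis starts at 0. All HET values of Sumo3, Sae1, Ube2m, Ube2f, Nedd8, Dcun1d3 and Cand1 lie above the WT values, and all HET values of Sumo2, Pias3, Senp2 and Cul1 lie below them.

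Sumo3 rose, and its paralog Sumo2 did not pass. In the order of replicates 1 to 3, used throughout, Sumo3 measured 51.0, 50.8 and 49.5 FPKM for HET and 40.7, 37.7 and 43.8 for WT. The groups did not overlap, with means of 50.4 ± 0.838 against 40.7 ± 3.01 (SD, n = 3 each here and below), a 1.24-fold rise. The log2 fold change was 0.30 (SE 0.07, limma adjusted p = 0.0096), and the adjusted p stayed between 0.0135 and 0.0379 when any 1 library was left out. Sumo2 was at 24.0, 22.1 and 23.9 FPKM in HET and at 24.9, 25.1 and 27.9 in WT. All HET values lay below the WT values, but the log2 fold change of -0.15 (95% confidence interval -0.31 to 0.01) did not pass (limma adjusted p = 0.109), and it was 0.06 with the median ratio over all rows above 0.

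Within each library the ratio of Sumo3 to Sumo2 was 2.13, 2.30 and 2.07 in HET and 1.64, 1.50 and 1.57 in WT. Dividing a library by a common factor leaves this ratio unchanged, whereas quantile normalization can change it. The ratio was 1.38-fold higher in HET, a difference of 0.46 on the log2 scale, and all 3 HET libraries lay above all 3 WT libraries. Over the 20 arrangements of the libraries, the exact two-sided permutation p was 0.1, which is the minimum for groups of 3, and 0.4 after adjustment over the 12 ratios examined.

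Of the subunits of the SUMO-activating enzyme, Sae1 rose and Uba2 did not pass. Sae1, the smaller subunit, was at 48.3, 44.4 and 42.2 FPKM in HET and at 37.8, 40.3 and 35.9 in WT. It rose 1.18-fold without overlap (log2 fold change 0.24, SE 0.07, limma adjusted p = 0.0337). The call was lost without HET replicate 1 (adjusted p = 0.0545), HET replicate 2 (0.0806), WT replicate 1 (0.0973) or WT replicate 3 (0.12). Uba2, the subunit that holds the catalytic cysteine, was at 19.7, 20.3 and 20.9 FPKM in HET and at 20.4, 18.5 and 21.9 in WT, with means of 20.3 in both. The Uba2 to Sae1 ratio was 0.408 to 0.496 in HET and 0.458 to 0.61 in WT, so the ranges overlapped, and the exact permutation test gave p = 0.2.

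Among the SUMO ligases Pias3 fell, by the largest log2 fold change of the 44 genes as deposited. The change of Sumo3 was larger with the median ratio over tested genes or over all rows above 0 (0.44 and 0.51), and with quantile normalization that of Dcun1d3 was (0.59, against -0.31 for Pias3). Pias3, first known as an inhibitor of Stat3, was at 2.95, 3.19 and 3.52 FPKM in HET and at 5.21, 5.0 and 4.96 in WT. It was 1.57-fold lower (3.22 ± 0.284 against 5.06 ± 0.132) with a log2 fold change of -0.52 (SE 0.07, limma adjusted p = 0.00116). The groups stood far apart, the adjusted p was at most 0.00793 with any 1 library left out, and the log2 fold change was -0.41 and -0.35 with the median ratio over tested genes and over all rows above 0. An exon of Nudt17 overlaps Pias3 on the opposite strand in GENCODE M21, and whether fragments were counted by strand is not given. Nudt17 was at 0.128 to 0.358 FPKM in all libraries. The part of this overlap in the level of Pias3 was not tested.

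The other PIAS genes did not pass. Pias1 was at 3.54, 4.06 and 4.25 FPKM in HET and at 4.68, 4.3 and 4.73 in WT, without overlap (log2 fold change -0.17, limma adjusted p = 0.0982, and 0.0016 with the median ratio over all rows above 0). Pias2 was at 3.76 to 4.07 in HET and 3.89 to 4.44 in WT. Pias4 was at 10.9, 10.7 and 8.93 in HET and at 8.92, 9.34 and 8.77 in WT, so that HET replicates 1 and 2 lay above WT and HET replicate 3 lay within it. Its log2 fold change was 0.15 (adjusted p = 0.162), and without HET replicate 3 it passed (adjusted p = 0.0212), as it did with the median ratio over tested genes (0.28, adjusted p = 0.0188).

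Ranbp2, a nuclear pore protein with SUMO ligase activity, was at 6.28, 7.07 and 6.89 FPKM in HET and at 7.32, 7.46 and 8.08 in WT. The groups did not overlap and the difference did not pass (log2 fold change -0.15, limma adjusted p = 0.0956). Rnf4, the other SUMO-targeted ubiquitin ligase, was at 24.9, 26.7 and 26.0 FPKM in HET and at 22.8, 24.8 and 24.4 in WT. Its HET values lay just above the WT values, with a log2 fold change of 0.10 (adjusted p = 0.181), and 0.24 with the median ratio over tested genes (adjusted p = 0.0114). Rnf111 itself was at 4.25 to 4.83 FPKM in HET and 4.97 to 5.34 in WT and did not pass (log2 fold change -0.17, adjusted p = 0.0609).

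Of the 6 SUMO proteases, which mature SUMO precursors and cut SUMO from its targets, Senp2 fell and 5 did not pass. Senp2 was at 9.31, 10.4 and 11.0 FPKM in HET and at 12.2, 14.0 and 12.5 in WT, 1.26-fold lower without overlap (log2 fold change -0.30, SE 0.08, limma adjusted p = 0.0205). The call was lost without WT replicate 2 (adjusted p = 0.0689) or WT replicate 3 (0.0504), and with the median ratio over tested genes (log2 fold change -0.18, adjusted p = 0.12). Senp1 was at 3.47, 3.77 and 3.8 in HET and at 3.97, 3.89 and 4.37 in WT, with the HET values just below (adjusted p = 0.174).

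Senp3 and Senp5, nucleolar proteases that prefer SUMO2 and SUMO3, were at 16.5 to 18.0 and 4.13 to 4.36 FPKM in HET against 17.5 to 19.4 and 4.16 to 4.52 in WT. Senp6 and Senp7, which trim SUMO chains, were at 10.1 to 11.9 and 2.24 to 3.53 in HET against 10.6 to 11.6 and 2.96 to 3.09 in WT. These 4 overlapped between the genotypes. With the median ratio over all rows above 0, Senp5 (0.17, limma adjusted p = 0.031) and Senp6 (0.21, adjusted p = 0.0438) were called higher. Senp7 spread more in HET than in WT, with SDs of 0.649 and 0.0665, with HET replicate 1 low at 2.24 and HET replicate 2 high at 3.53.

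**Figure D3:**
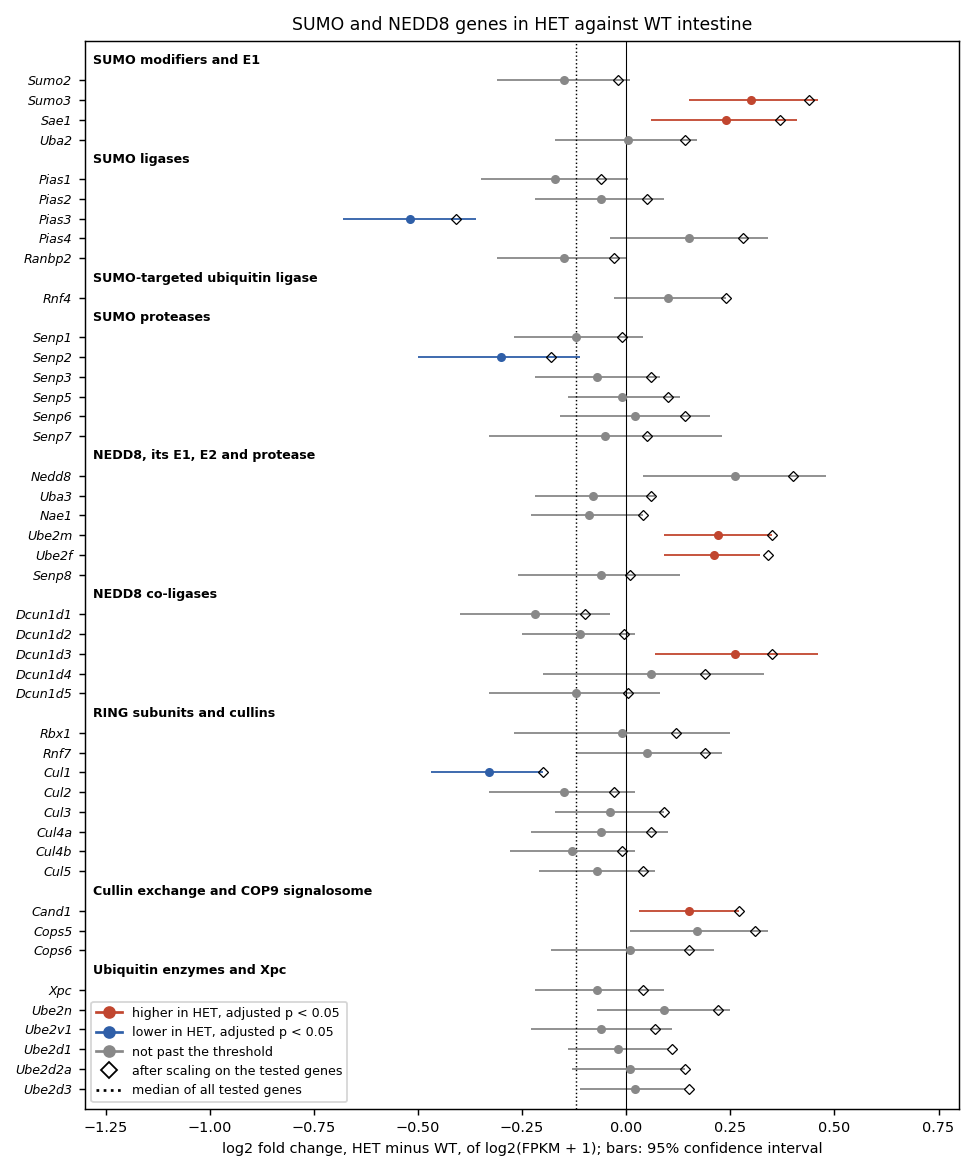
Log2 fold change of HET minus WT with its 95% confidence interval for the 44 genes, grouped by role; open diamonds give the value after scaling by the median ratio over tested genes, and the dotted line is the median of all tested genes (-0.12). The 6 genes called higher and the 3 called lower are coloured, and 34 of the 44 lie within 0.2 of 0.

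In the NEDD8 branch both conjugating enzymes rose. Ube2m, which serves most cullins, was at 70.6, 66.2 and 65.9 FPKM in HET and at 56.1, 59.3 and 58.4 in WT, a 1.17-fold rise without overlap (log2 fold change 0.22, SE 0.06, limma adjusted p = 0.0181). The call was lost without WT replicate 1 (adjusted p = 0.0764) or WT replicate 3 (0.0595). Ube2f, which serves Cul5, was at 16.5, 16.8 and 17.2 FPKM in HET and at 14.5, 14.2 and 14.5 in WT, also 1.17-fold higher without overlap (log2 fold change 0.21, SE 0.05, adjusted p = 0.0127). This call was lost without WT replicate 2 (adjusted p = 0.0526). The ratio of Ube2f to Ube2m was 0.233 to 0.26 in HET and 0.24 to 0.258 in WT, overlapping ranges (exact permutation test, p = 1).

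Nedd8 itself was at 90.5, 75.1 and 72.3 FPKM in HET and at 67.3, 62.8 and 67.0 in WT. All HET values lay above the WT values, with HET replicate 1 highest, and the log2 fold change of 0.26 (95% confidence interval 0.04 to 0.48) fell just short of the threshold (limma adjusted p = 0.0529). It passed without HET replicate 1 (adjusted p = 0.0472) or HET replicate 3 (0.0277), and with the median ratio over tested genes (0.40, adjusted p = 0.0109). The opposite strand at Nedd8 carries an overlapping exon of Gmpr2, which was at 6.69 to 7.99 FPKM in HET and 6.38 to 6.94 in WT. Uba3 and Nae1, the catalytic and regulatory subunits of the NEDD8-activating enzyme, were at 22.9 to 24.1 and 15.8 to 17.1 FPKM in HET and at 23.6 to 26.5 and 16.7 to 17.7 in WT, overlapping in both cases. Their ratio, Nae1 over Uba3, was 0.675 to 0.708 in HET and 0.666 to 0.722 in WT. Senp8, the NEDD8 protease, was the weakest of the 44 at 1.03 ± 0.177 FPKM in HET and 1.12 ± 0.0867 in WT (adjusted p = 0.547).

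The 5 Dcun1d genes encode co-ligases that help the conjugating enzymes place NEDD8 on cullins. Dcun1d3, a membrane-associated member, rose 1.34-fold from a low level, with 2.06, 1.98 and 1.65 FPKM in HET and 1.24, 1.48 and 1.52 in WT (log2 fold change 0.26, SE 0.08, limma adjusted p = 0.0362). The groups were close, with HET replicate 3 just above WT replicate 3, and the call held only without HET replicate 3 among the 6 fits that left out a library (adjusted p = 0.0188 there and 0.0631 to 0.117 in the others). It was also lost with no filter on low values (adjusted p = 0.0586). Lyrm1, which overlaps Dcun1d3 on the opposite strand, was at 2.05 to 2.51 FPKM in HET and 2.99 to 3.67 in WT. Dcun1d1 was at 7.62, 8.69 and 7.33 in HET and at 8.84, 9.2 and 9.95 in WT, lower in each HET library without passing (log2 fold change -0.22, adjusted p = 0.053, and 0.0302 without HET replicate 2). Dcun1d2 was at 3.67 to 3.93 in HET and 4.06 to 4.36 in WT (adjusted p = 0.14). Dcun1d4 and Dcun1d5 overlapped between the genotypes, and in both HET replicate 3 was the lowest of the 6 libraries, at 7.13 and 10.3 FPKM.

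Of the 6 cullins in the list, Cul1 passed as deposited. Cul1, the scaffold of the SCF ligases, was at 20.8, 22.1 and 22.4 FPKM in HET and at 27.5, 26.8 and 28.7 in WT, with a wide gap between the groups. It was 1.27-fold lower (log2 fold change -0.33, SE 0.06, limma adjusted p = 0.00362), and the adjusted p was at most 0.0202 with any 1 library left out. With the median ratio over tested genes it was -0.20 (adjusted p = 0.0276), and over all rows above 0 it was -0.13 and did not pass (adjusted p = 0.0929).

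Cul2, the scaffold of the von Hippel-Lindau ligase, was at 7.05 to 7.76 FPKM in HET and 7.98 to 9.3 in WT, and Cul4b, which pairs with Ddb1, at 5.03 to 5.82 and 5.9 to 6.12. Both lay wholly below WT without passing (adjusted p = 0.129 and 0.134). Cul3, which uses BTB adaptors, was at 20.6 to 21.8 in HET and 21.1 to 22.5 in WT. Cul4a was at 13.6 to 14.9 and 13.9 to 16.1, and Cul5 at 4.8 to 5.2 and 5.09 to 5.55. Those 3 overlapped, and Cul3 was called higher with the median ratio over all rows above 0 (0.17, limma adjusted p = 0.036).

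Rbx1 and Rnf7, the RING subunits that recruit conjugating enzymes to cullins, had means of 25.1 and 26.6 FPKM in HET and of 25.1 and 25.6 in WT. Rbx1 was at 29.2, 25.2 and 21.0 in HET replicates 1 to 3, spreading to either side of the WT range of 24.3 to 25.9. Their ratio, Rnf7 over Rbx1, was 0.983 to 1.15 in HET and 0.96 to 1.11 in WT. Rnf7 passed as higher with the median ratio over tested genes (0.19, limma adjusted p = 0.049).

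Cand1, which swaps the adaptors of cullins that carry no NEDD8, rose by the smallest amount of the genes called as deposited, just past the threshold. It was at 8.9, 9.28 and 9.35 FPKM in HET and at 8.05, 8.25 and 8.26 in WT, 1.12-fold higher without overlap (log2 fold change 0.15, SE 0.05, limma adjusted p = 0.0493). With 1 library left out it passed only without HET replicate 1 (adjusted p = 0.0342, otherwise 0.102 to 0.142). The call was also lost with robust eBayes (adjusted p = 0.0515), with no trend (0.0549) and among genes with a mean FPKM of at least 5 (0.0506). Cops5, the subunit of the COP9 signalosome that cuts NEDD8 from cullins, was at 39.9, 37.5 and 34.2 in HET and at 32.7, 32.2 and 33.4 in WT. The HET values all lay above WT, most narrowly in HET replicate 3, and the difference did not pass (log2 fold change 0.17, adjusted p = 0.0728, and 0.0196 without HET replicate 3). It passed with the median ratio over tested genes (0.31, adjusted p = 0.00643). Cops6, its partner subunit, was at 42.2, 35.5 and 35.9 in HET and at 37.2, 35.4 and 39.7 in WT, overlapping. The Cops6 to Cops5 ratio was 0.946 to 1.06 in HET and 1.1 to 1.19 in WT, with every HET library below every WT library and a mean log2 difference of -0.17 (exact permutation test, p = 0.1, and 0.4 adjusted over the 12 ratios).

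The 5 ubiquitin-conjugating genes and Xpc missed the threshold as deposited, and each 95% confidence interval of the log2 fold change included 0. After scaling on the tested genes, Ube2n (0.22, limma adjusted p = 0.0219) and Ube2d3 (0.15, adjusted p = 0.0443) passed as higher. Ube2d3, a conjugating enzyme used by many RING ligases and the most abundant of the 44, was at 106, 106 and 107 FPKM in HET and at 102, 109 and 106 in WT (log2 fold change 0.02, 95% confidence interval -0.11 to 0.14). Its relatives Ube2d1 and Ube2d2a were at 9.38 to 9.71 and 33.3 to 36.3 in HET and at 9.5 to 9.95 and 33.1 to 35.4 in WT. The intronless copy Ube2d2b was listed at 0 in every library. Ube2n, which builds non-degradative ubiquitin chains, was at 20.8 to 23.2 in HET and 19.7 to 22.2 in WT. Ube2v1, a non-catalytic partner of Ube2n, was at 37.2 to 43.1 and 39.9 to 42.7. Ube2v2, a related gene outside the 44, was at 4.85, 5.3 and 4.96 in HET and at 5.93, 1.46 and 7.07 in WT. It did not pass (log2 fold change 0.23, limma adjusted p = 0.678). Xpc was at 2.73 to 2.97 in HET and 2.83 to 3.22 in WT (log2 fold change -0.07, 95% confidence interval -0.22 to 0.09). The Ube2v1 to Ube2n ratio was 1.68 to 1.86 in HET and 1.92 to 2.03 in WT, lower in every HET library, with a mean log2 difference of -0.16 (exact permutation test, p = 0.1, and 0.4 adjusted over the 12 ratios).

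**Figure D4:**
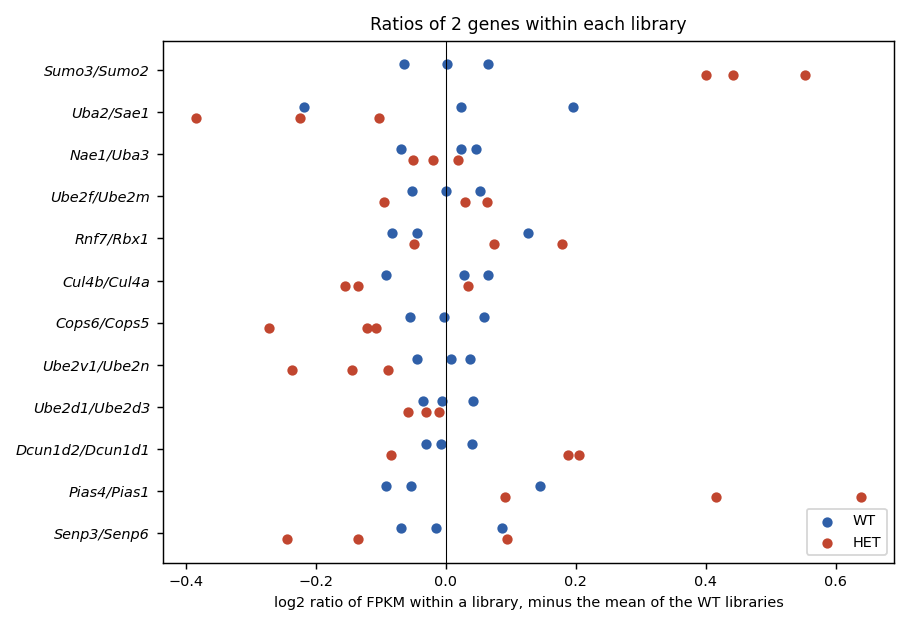
Log2 ratio of FPKM of 2 genes within each library, minus the mean of the 3 WT libraries, for 12 pairs; each point is 1 library. The 3 HET libraries stand apart from WT for Sumo3/Sumo2 (above) and for Cops6/Cops5 and Ube2v1/Ube2n (below), and overlap with WT for the other 9 pairs.

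Other genes of these pathways, taken from lists of the same kind, were read beside the 44, with 10.7% of all tested genes called higher and 35.7% called lower as deposited, and 23.1% and 24.8% with the median ratio over tested genes. Of 17 further SUMO pathway genes tested, 3 rose and 5 fell. Their median log2 fold change was -0.14, and after scaling on the tested genes 5 were higher and 5 lower. Pml, the scaffold of the SUMO-rich PML nuclear bodies, was at 6.4, 6.27 and 6.57 FPKM in HET and at 10.3, 11.1 and 10.3 in WT, 1.64-fold lower (log2 fold change -0.64, SE 0.06, limma adjusted p = 0.000289). The groups did not overlap. Zmiz1, a PIAS-like protein, was 1.35-fold lower and missed the threshold with the median ratio over all rows above 0 (log2 fold change -0.20, limma adjusted p = 0.0572). Rangap1, the first known SUMO target, was 1.26-fold higher (25.7 ± 1.25 against 20.5 ± 0.521, adjusted p = 0.00469), Nsmce2, a SUMO ligase of the Smc5/6 complex, 1.23-fold and Uspl1, a SUMO protease, 1.24-fold higher. With a library left out, Nsmce2 lost its call without WT replicate 1 or 2 (adjusted p up to 0.0747), and Uspl1 without HET replicate 1 or 2 or WT replicate 2 or 3 (up to 0.102).

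Of 30 further NEDD8 and cullin pathway genes tested, 1 rose and 9 fell, where 10.7% of all tested genes rose and 35.7% fell. The median log2 fold change was -0.09. Klhl22, a Cul3 adaptor, was at 8.0, 8.65 and 8.33 FPKM in HET and at 11.6, 11.3 and 12.0 in WT, 1.40-fold lower without overlap (log2 fold change -0.44, SE 0.05, limma adjusted p = 0.00106). Btrc, an F-box adaptor of Cul1, was 1.50-fold lower (2.78 ± 0.106 against 4.16 ± 0.416), and Cops2, a COP9 signalosome subunit, 1.30-fold lower (20.8 ± 1.21 against 27.2 ± 0.822). Commd1, which competes with Cand1 for cullins, was the 1 that rose, 1.25-fold (12.0 ± 0.49 against 9.58 ± 1.37, adjusted p = 0.0414), and lost its call without HET replicate 1 or 2 or WT replicate 2 or 3 (adjusted p up to 0.108). When scaled by the median ratio over tested genes, 8 of these genes were higher and 4 lower.

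Of 31 further ubiquitin enzymes and ubiquitin genes tested, 5 rose and 4 fell, and the median was 0.06 on the log2 scale. Scaled on the tested genes, 13 were higher and 1 lower. Ube2e3 rose 1.36-fold (19.2 ± 0.291 against 14.2 ± 0.151 FPKM, limma adjusted p = 0.0008), Ube2c, the mitotic conjugating enzyme of the anaphase-promoting complex, 1.25-fold (63.7 ± 2.9 against 51.1 ± 1.67), and Ube2j2, of the endoplasmic reticulum, 1.18-fold. Ube2h and Ube2b fell 1.32-fold and 1.27-fold as deposited. Ube2b missed the threshold with the median ratio over tested genes (log2 fold change -0.21, limma adjusted p = 0.0548), and Ube2h with that over all rows above 0 (-0.17, adjusted p = 0.0865). With a library left out, the call of Ube2j2 was lost without WT replicate 2 or 3 (adjusted p up to 0.051) and that of Ube2b without WT replicate 2 (0.052).

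Of 12 genes of the XPC complex and nucleotide excision repair, 2 rose and 4 fell, and the median was -0.18 on the log2 scale. After scaling on the tested genes, 2 were higher and 1 lower. Rad23b was at 37.6, 39.8 and 40.0 FPKM in HET and at 30.9, 31.5 and 32.2 in WT, 1.24-fold higher without overlap (log2 fold change 0.30, SE 0.05, limma adjusted p = 0.0039). Cetn2, another subunit of the complex, was 1.24-fold lower (9.17 ± 1.04 against 11.3 ± 0.0709, adjusted p = 0.0246) as deposited. It was called under 2 of the 5 scalings, and its log2 fold change of -0.28 became -0.16 with the median ratio over tested genes (adjusted p = 0.139) and -0.09 with that over all rows above 0 (adjusted p = 0.389). Ddb2, a sensor of ultraviolet damage that delivers lesions to Xpc, was 1.41-fold lower (1.66 ± 0.197 against 2.35 ± 0.152) and missed the threshold with the median ratio over all rows above 0 (limma adjusted p = 0.0707). Ercc3, a helicase of transcription factor TFIIH, was 1.20-fold higher (14.3 ± 0.718 against 11.9 ± 0.489). The call of Cetn2 held only without HET replicate 1 among the 6 fits that left out a library (adjusted p up to 0.0752 in the others). Ercc3 lost its call without HET replicate 2 or WT replicate 1 or 2 (up to 0.0634).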

How the data were processed

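RNA-seq of mouse intestine, with 3 HET and 3 WT libraries, was used as the table of FPKM values that the authors deposited, 1 column per library. Oligo(dT) capture and a SMARTER library kit were used, per the labels' protocols. The build is GRCm39, per the submitters' processing notes; no aligner, counting tool, annotation or use of strand is given in the sources used here. FPKM depends on transcript length and on the library total, so abundant genes shift all others.

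The 11870 rows reaching 1 FPKM in 3 or more libraries entered the test. Values were compared as log2(FPKM + 1) in limma 3.58.1 in R 4.3.3 (eBayes with trend, genotype as the only term, Benjamini-Hochberg over all tested rows, threshold 0.05). On simulated data with 200 of 11870 genes changed, the fit recovered 51.5% of log2 changes of 0.5 and 90.5% of changes of 1.0. Among the real libraries the same fit called 4235 genes lower and 1269 higher. The Benjamini-Hochberg cut-off moves with the number of genes that pass, so these rates do not describe recovery in the real libraries. Smaller changes were not simulated. For ratios of 2 genes an exact permutation test was used, two-sided. Depth came from the mode of FPKM times length over genes with 1 GENCODE M21 transcript, a rough estimate. Python 3.11.15, numpy 2.4.6, pandas 2.3.3 and matplotlib 3.10.9 were used.

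Members, lists, ratios and tests were chosen with earlier results of these data known. Values in every library were given for, per role, up to 4 called members by moderated statistic, or the most abundant one, for Rnf111, and for members that lose their call or change direction with the median ratio over all rows above 0 (some as ranges); other per-library values were added after they were seen. Of the other pathway lists up to 3 called genes per direction were named, and some genes that this rule takes are not reported here. Of the 44 genes, 15 have an exon that another GENCODE M21 gene overlaps, 12 of them only on the opposite strand. The lists also held Skp1, Trac, Igkc and Ighm, not used here. Whether each library is a separate animal is not stated; a p-value here measures only library-to-library spread, which may be technical. No batch is labelled. Alternatives were 2 other pseudocounts, 2 other filters, 3 other scalings, a replicate block, weights per library, a robust eBayes or one with no trend, and omission of each library; the median ratio over tested genes was added after seeing the data.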

Additional observations from a re-analysis of the deposited data

How the results depend on the processing

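The 9 called members kept their direction under every alternative run. Calls of Sumo3 and Pias3 held in every setting in which each was tested, except that Pias3 fell below a mean FPKM of 5 and was then not tested. With 1 library left out, 2 to 8 members were called higher (6 with all) and 2 to 4 lower. Over all tested genes 754 to 1610 were called higher (1269 with all libraries) and 3150 to 4409 lower (4235). Of the other pathway genes, 6 to 17 were called higher (11) and 12 to 24 lower (22). The median of the members stood 0.07 above that of all tested genes on the log2 scale, and 0.07 to 0.09 above it with a library left out.

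Array weights, whose estimation stopped before it converged, gave 10 members higher and 7 lower, and 2090 higher and 5066 lower of all 11870 tested genes. Of the members lower with these weights, Sumo2, Pias1, Dcun1d2 and Cul2 were not called as deposited. The weights also gave 22 other pathway genes higher and a relative median of 0.09. The common sum gave 20 other pathway genes higher and 14 lower. A mean FPKM of at least 5 gave 1853 genes lower in all, 12 other pathway genes lower and a relative median of 0.04, no filter a relative median of 0.03 and a pseudocount of 0.01 one of 0.08. The median ratio over all rows above 0 gave 19 members higher and 1 lower, 3685 genes higher and 2379 lower in all, 36 other pathway genes higher and 6 lower, and a relative median of 0.09. The median ratio over tested genes, added after seeing the data, gave 13 members higher, 2732 genes higher in all, and 28 other pathway genes higher and 11 lower. Quantile normalization gave 13 members higher, 2929 genes higher and 2153 lower in all, 28 other pathway genes higher and 8 lower, and a relative median of 0.06.

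Some members not called as deposited, and Rnf111, changed the sign of their log2 fold change. With array weights these were Senp7 0.12, Senp8 0.04, Cops6 -0.06 and Ube2d2a -0.01, and with the common sum Senp5 0.04, Rbx1 0.04, Cul3 0.01 and Ube2d1 0.03. With the median ratio over all rows above 0 they were Sumo2 0.06, Pias1 0.0016, Pias2 0.11, Ranbp2 0.03, Senp1 0.05, Senp3 0.13, Senp5 0.17, Senp7 0.11, Uba3 0.13, Nae1 0.11, Senp8 0.05, Dcun1d2 0.06, Dcun1d5 0.07, Rbx1 0.20, Cul2 0.04, Cul3 0.17, Cul4a 0.14, Cul4b 0.05, Cul5 0.11, Xpc 0.09, Ube2v1 0.15, Ube2d1 0.18 and Rnf111 0.0042. With the median ratio over tested genes they were Pias2 0.05, Senp3 0.06, Senp5 0.10, Senp7 0.05, Uba3 0.06, Nae1 0.04, Senp8 0.01, Dcun1d5 0.0039, Rbx1 0.12, Cul3 0.09, Cul4a 0.06, Cul5 0.04, Xpc 0.04, Ube2v1 0.07 and Ube2d1 0.11. With quantile normalization they were Pias1 0.04, Pias2 0.15, Senp1 0.10, Senp3 0.01, Senp5 0.20, Senp7 0.21, Uba3 0.0005, Senp8 0.34, Dcun1d2 0.10, Rbx1 0.06, Cul3 0.04, Cul4a 0.03, Cul4b 0.05, Cul5 0.12, Xpc 0.19, Ube2v1 0.01, Ube2d1 0.10 and Rnf111 0.02. Among these sign changes, Senp5, Senp8 and Xpc passed as higher with quantile normalization (limma adjusted p = 0.0183, 0.0144 and 0.044). Senp5, Cul3 and Ube2d1 did so with the median ratio over all rows above 0 (limma adjusted p = 0.031, 0.036 and 0.0236). With a library left out the log2 fold change ranged over -0.06 to 0.06 for Uba2, -0.02 to 0.02 for Senp5, -0.02 to 0.09 for Senp6, -0.16 to 0.08 for Senp7, -0.01 to 0.19 for Dcun1d4, -0.12 to 0.11 for Rbx1, -0.07 to 0.06 for Cops6, -0.03 to 0.0015 for Ube2d1, -0.03 to 0.03 for Ube2d2a, -0.01 to 0.04 for Ube2d3, and the log2 ratio difference over -0.05 to 0.01 for Nae1/Uba3 and -0.03 to 0.05 for Ube2f/Ube2m.

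Whether the replicate numbers pair the libraries is not stated, and so few libraries per genotype cannot settle it. Deviations from the group means correlated at -0.0293, 0.132 and 0.322 for the same-numbered pairs. For the other pairs they correlated at -0.344 (HET replicate 3 with WT replicate 2) to 0.249 (HET replicate 1 with WT replicate 2). With the replicate number as a block, 5 members were higher and 3 lower, and 1167 and 3915 genes were in all. The limma calls of Dcun1d3 (adjusted p = 0.0732) and Cand1 (0.0938) were not made with the block, and Nedd8 passed (0.0484). The smallest log2 fold change called among the members as deposited was 0.15.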
